A study of Homo sapiens with 57 samples.

Results

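Messenger RNA from HCT116 cells, an established human colorectal carcinoma line, was compared between cells induced to make the TA7 form and cells induced to make the WT form of an Spt5 fragment. The 3 TA7 and 3 WT libraries were chosen by their sample titles from the 9 messenger RNA libraries of the series, which holds 57 samples in all, and every one of the 228715 transcripts listed in their tables was considered. All 6 came from a line named Spt5-HA-dhfr, so in both groups the cells' own Spt5 carried an HA and dhfr fusion. Trimethoprim (TMP in the titles), the ligand that stabilises a dhfr degron, was left out in both groups, and doxycycline at 2 ug/ml for 24 hours induced an Avi-tagged Spt5 of residues 1 to 820 from a pCW57 plasmid. By their labels the groups differed only in the CTR1 region of that fragment, named TA7 in one and left WT in the other. Both grew in the same medium with hygromycin, G418 and blasticidin. The labels do not say whether a line was 1 clone or a pool, nor whether replicates were separate cultures, so a difference between the lines made for each construct cannot be told apart from the form of CTR1. The p-values below rest only on the spread between sequenced libraries, which may be technical: that of 9 messenger RNA libraries in the edgeR fit, and that of the 6 in the exact tests.

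Spt5, encoded by SUPT5H, is a conserved elongation factor that forms the DSIF complex with Spt4 and rides on RNA polymerase II from the promoter-proximal pause to the end of the gene. Its CTR is a repeat region that the pause-release kinase P-TEFb phosphorylates, and that phosphorylation is tied to the change of DSIF from a pausing factor to a factor that helps elongation. Messenger RNA levels read the steady state that results from synthesis and decay together, and do not measure polymerase position. The question of the comparison is whether cells making the TA7 form hold polyadenylated transcripts at other levels than cells making the WT form. The tables name transcripts by Ensembl identifier only, and the gene tables at hand held 0 of those identifiers. Transcripts were therefore not assigned to genes, and neither the level of SUPT5H nor the colon epithelial markers of the line could be checked.

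The WT libraries held 65194446, 64364751 and 67628672 estimated reads and the TA7 libraries 65723341, 90805283 and 67558420. Across the 19722 transcripts with a mean of at least 5 CPM (CPM, counts relative to library size as scaled with TMM factors), the median absolute log2 difference between 2 TA7 libraries was 0.13 to 0.18. Between 2 WT libraries it was 0.14 to 0.28, and the pairs with WT replicate 1, at 0.25 and 0.28, were the widest of these. Between a TA7 and a WT library it was 0.17 to 0.27, with all 9 such pairs inside the range found within WT. WT replicate 1 thus lay farther from WT replicates 2 and 3 than any TA7 library did, since those pairs were at 0.17 to 0.23. It also had the lowest TMM factor, 0.92, against 1.02 to 1.04 in the other 5 libraries. The median SD of log2 CPM was 0.19 within WT and 0.14 within TA7, and over the other 2 libraries of each group, without replicate 1, it was 0.10 and 0.09. A median SD over 2 libraries tends to run lower than 1 over 3, so the drop is not read as an effect of replicate 1.

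The test called few transcripts between the forms, a count that changed with the libraries and the tool used. In bulk RNA a change in every cell cannot be told apart from a change in some of them. Of 78478 tested, 48 passed (0.0612%), 32 of them higher in TA7 (0.0408%) and 16 lower (0.0204%), in edgeR's quasi-likelihood test with Benjamini-Hochberg adjusted p under 0.05 and n = 3 per group. The 3 libraries of TE7, another form of CTR1, entered that fit only to estimate the spread and in the filter on low counts. With library size alone in place of TMM factors the split was 45 higher and 12 lower. The median log2 change over all tested transcripts was 0.00, and the quartiles of those at 5 CPM or more were -0.17 and 0.15. Fitted without TE7, on 6 libraries, the same test called 0 of 71232 transcripts (0%), with 4523 at an unadjusted p under 0.05 (6.35%), and DESeq2 on the 9 libraries called 2206 (2.81%). In the fit of 6 libraries all 48 transcripts kept their direction and an unadjusted p of 1.92e-06 to 0.000918, while their adjusted p was 0.137 to 0.289. The 48 had been chosen by small p in a fit that holds these same 6 libraries. Nothing is therefore read from the kept direction or the unadjusted p.

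**Figure D1:**
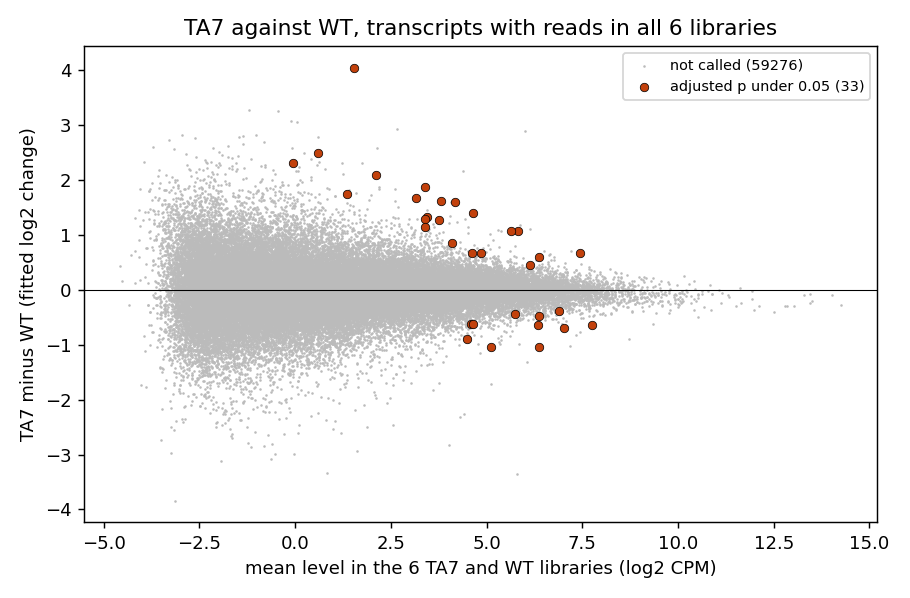
Mean level (log2 CPM, horizontal) against the fitted TA7 minus WT log2 change (vertical) for the 59309 tested transcripts with reads in all 6 libraries, each point 1 transcript. The 33 called transcripts (filled) lie near the edge of the cloud, and the cloud narrows as the level rises.

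The calls fell into 2 kinds. The first holds 33 transcripts with reads in both groups, 22 higher and 11 lower in TA7, for which all 3 TA7 libraries lay outside the range of the WT libraries. The 22 higher ones rose by 1.36-fold to 16.4-fold, with a median of 2.45-fold, and 16 of them by at least 2-fold. Their WT means ran from 0.327 to 134 CPM. The 11 lower ones fell less, by 1.32-fold to 2.07-fold with a median of 1.56-fold, and 2 of them by at least 2-fold. They were abundant, with WT means of 29.3 to 264 CPM, and 6 of the 11 were 4000 bases or longer, as were 30.3% of all tested transcripts at 5 CPM or more. Across all tested transcripts 14.1% had groups that did not overlap, 7.48% higher and 6.61% lower, so separate groups alone were common. Replicate spread enters the test, so a call is more likely where that spread is small. In the called transcripts of at least 5 CPM in this kind the median SD of log2 CPM within WT and TA7 was 0.09. Over all transcripts at that level it was 0.18, and nothing is read from that difference.

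**Figure D2:**
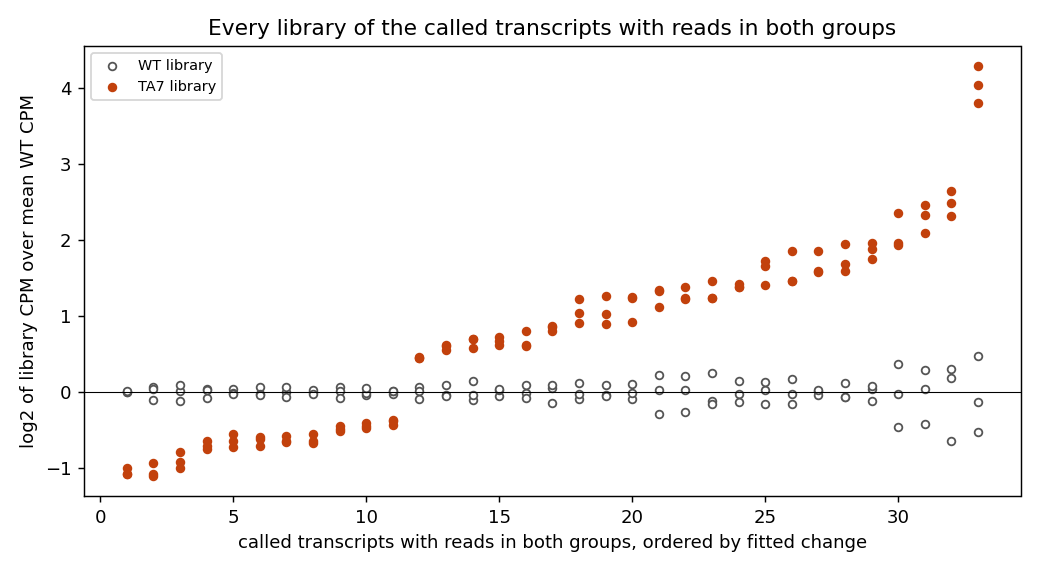
The 33 called transcripts with reads in both groups, ordered by fitted change (horizontal), with the log2 ratio of each library's CPM to the mean WT CPM (vertical), open points WT and filled points TA7. In each transcript the 3 TA7 points lie beyond the 3 WT points, by less among the 11 lower ones than among most of the 22 higher ones.

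The rule for naming took called transcripts with at least 5 CPM in the higher group and groups that did not overlap, which 20 higher and 12 lower ones met, and from these the 2 largest changes in each direction. Of the pair with reads in both groups, ENST00000368149.3_3, of 4414 bases, was the lower one. It stood at 112, 112 and 113 CPM in WT and at 53.1, 56.1 and 53.2 CPM in TA7, so in CPM each group was tight. The rule had asked for a call and for groups apart in every named transcript, so nothing is read from either trait. The means were 112 ± 0.682 and 54.1 ± 1.69 CPM (SD, n = 3), a log2 change of -1.05 (SE 0.05) with edgeR adjusted p = 0.00266. As TPM (a level per effective length) it was at 42.6 ± 5.18 in WT and 20.9 ± 0.872 in TA7 (SD, n = 3). It passed in all 9 edgeR fits that left out 1 library. Its adjusted p was 0.137 in the edgeR fit of 6 libraries and ran from 2.71e-101 (DESeq2) to 0.847 over all alternatives.

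The higher one of that pair, ENST00000327741.9_3, of 1929 bases, was a low transcript in WT. It had 18, 15 and 32 reads in the WT libraries, or 0.301, 0.23 and 0.459 CPM, and 360, 597 and 321 reads in the TA7 libraries, or 5.39, 6.41 and 4.59 CPM. The lowest TA7 library thus lay far above the highest WT library. The means were 0.33 ± 0.117 CPM in WT and 5.46 ± 0.908 CPM in TA7 (SD, n = 3), a log2 change of 4.04 (SE 0.26) with edgeR adjusted p = 0.00717. The TPM means were 0.201 ± 0.0819 and 3.52 ± 0.648 (SD, n = 3). This transcript too passed in all 9 edgeR fits that left out 1 library, and had an adjusted p of 0.177 in the edgeR fit of 6 libraries and of 4.67e-53 (DESeq2) to 0.847 over all alternatives.

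The second kind holds 15 transcripts without a read in one of the groups, 10 at 0 in all WT libraries and 5 at 0 in all TA7 libraries. Such a transcript passed the filter on low counts only through the groups where it had reads. Their number therefore rests in part on that filter. A fold against a group at 0 is given as a lower bound. It sets the mean of the group with reads against 3 reads per library in the other group. It covers counting error in the group at 0 only, and not the spread of the group with reads. The 10 were at means of 0.612 to 6.71 CPM in TA7, at least 13.2-fold to 145-fold higher than in WT. The 5 were at means of 0.676 to 6.46 CPM in WT, at least 16.9-fold to 161-fold lower in TA7. Of these 15, 2 reached a mean of 5 CPM.

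ENST00000636569.1_2, of 6157 bases, had 0 reads in all 3 WT libraries and 626, 469 and 401 reads in the TA7 libraries, or 9.37, 5.03 and 5.74 CPM. It was at least 145-fold higher in TA7, with edgeR adjusted p = 0.00905. It passed in 6 of 9 edgeR fits that left out 1 library, with an adjusted p of up to 0.0663. In the edgeR fit of 6 libraries its adjusted p was 0.177, and over all alternatives it ran from 1.66e-16 (DESeq2) to 0.847. ENST00000395309.7_1, of 4021 bases, went the other way, with 340, 464 and 459 reads in the WT libraries, or 5.68, 7.11 and 6.59 CPM, and 0 reads in each of the 3 TA7 libraries. The drop was by at least 161-fold, with edgeR adjusted p = 0.039. Of the 4 it passed in the fewest edgeR fits that left out 1 library, 0 of 9, where its adjusted p was 0.0657 to 0.162. In the edgeR fit of 6 libraries its adjusted p was 0.177, and over all alternatives 1.57e-17 (DESeq2) to 0.847. This transcript also had 0 reads in each of the 3 TE7 libraries, so only the WT libraries showed its spread. The part of that in its adjusted p was not tested.

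**Figure D3:**
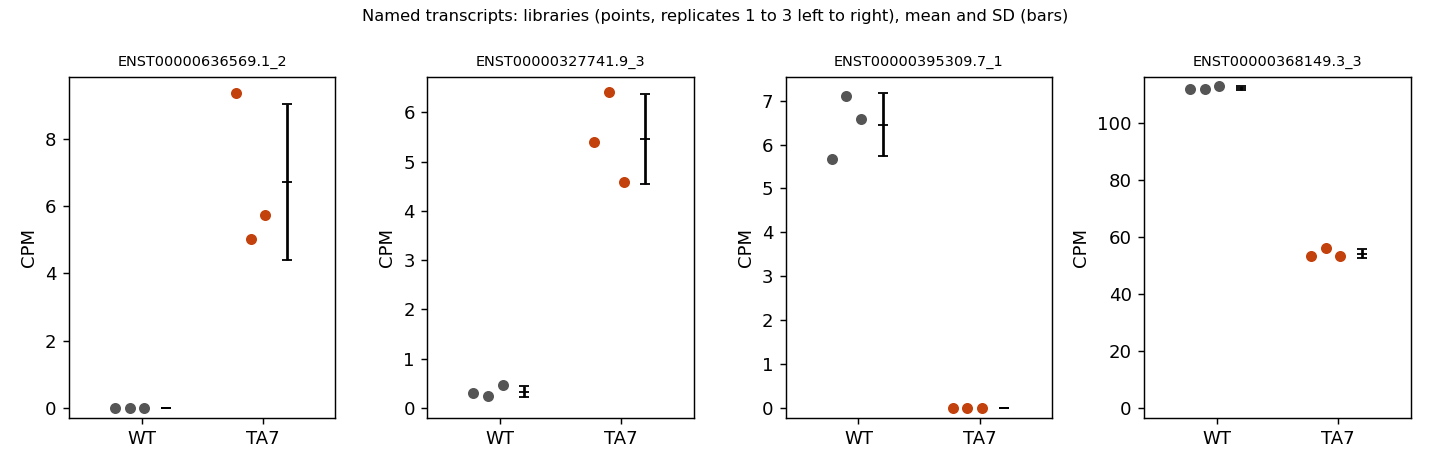
CPM (vertical, a separate scale in each panel) of the 4 named transcripts in the 3 WT and 3 TA7 libraries, points in replicate order, with mean and SD as bars. The panels show 2 transcripts at 0 in every library of one group, 1 low in WT and near 5 CPM in TA7, and 1 at about 112 CPM in WT and 54 CPM in TA7.

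A value of 0 was also common inside a group. Of the 46651 transcripts that reached 1 CPM in some WT library, 5868 (12.6%) were at 0 reads in another WT library, and within TA7 it was 4670 of 45788 (10.2%). At 5 CPM these shares were 4.66% in WT and 3.73% in TA7. The quantification divides reads shared by transcripts of similar sequence, so a transcript at 0 can belong to an expressed gene, and the part of such division in the 15 calls was not tested. Transcripts at 0 in all 3 WT libraries and at 1 CPM or more in each TA7 library numbered 28, of which edgeR called 6 and DESeq2 23. The reverse pattern was found for 23 transcripts, of which edgeR called 3 and DESeq2 20. The numbers were less even with no such limit. Of the 228715 listed, 1013 transcripts had no read in WT and at least 1 read in each TA7 library. The reverse, none in TA7 and at least 1 in each WT library, held for 321. WT replicate 1 had reads on 87229 transcripts, against 98794 to 99993 in TA7, and TA7 replicate 2 was the deepest library, with 90805283 reads. The part of detection and depth in this unevenness was not tested. Of the 1013, edgeR called 10 and DESeq2 167, and 743 were too low to be tested. Of the 321, edgeR called 5 and DESeq2 71, and 217 were too low to be tested.

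Calls made up a larger share of the abundant transcripts. Of the 1548 transcripts at 100 CPM or more, 1 was higher and 3 were lower (0.258%), and of the 6988 between 20 and 100 CPM, 7 were higher and 8 lower (0.215%). Of the 38778 below 1 CPM, 8 were higher and 4 lower (0.0309%). The precision differed in the same order, with a median SE of the log2 change of 0.09 at 100 CPM or more and of 0.84 below 1 CPM. At 100 CPM or more only 1 transcript had a fitted change of 2-fold or more in either direction. Between 5 and 20 CPM 2.45% had one, 125 higher and 149 lower, and 9 transcripts of that level passed the test, all of them higher (0.0805%). In simulated counts for this comparison, with 72493 transcripts tested and changes placed at 5 CPM or more, the same test recovered 26% of 2-fold and 68% of 4-fold changes. A change of 2-fold in a single transcript could thus go without a call at this depth and number of libraries.

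Among abundant transcripts the direction of the smaller differences followed the scaling and 1 library. At 100 CPM or more 232 transcripts were lower and 103 higher in TA7 at an unadjusted edgeR p under 0.05, where 7.73% of all tested transcripts had such a p. With library size alone 191 were lower and 243 higher, and without WT replicate 1 171 were lower and 348 higher. No direction is therefore given for this class.

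By transcript length, the forms differed by less than WT replicate 1 differed from the other WT libraries. For transcripts reaching 5 CPM the log2 change had a median of -0.12 in the 251 under 500 bases, -0.06 from 500 to under 1000 bases and -0.03 from 1000 to under 2000. It was 0.01 from 2000 to under 4000 bases, 0.01 from 4000 to under 8000 and 0.00 at 8000 or more. The order of the classes changed with 1 library. With all libraries the median was -0.06 under 1000 bases, 0.01 from 2000 to under 4000 bases and 0.01 at 4000 or more, and without WT replicate 1 these were 0.03, 0.06 and -0.01. In that library, transcripts of 8000 bases or more had a median of -0.23 against the other WT libraries and those under 500 bases a median of 0.34. Across the 6 classes the TA7 libraries' medians against the WT mean went no farther than -0.08 in TA7 replicate 1 and 0.08 in TA7 replicate 2, both at 8000 bases or more, and -0.08 in TA7 replicate 3 under 500 bases. The 15 called transcripts of 4000 bases or more were 8 higher and 7 lower, 0.129% of the 11672 tested in that range against 0.0612% of all tested. At 5 CPM or more 11 of 5985 such transcripts were called (0.184%), against 0.142% of all at that level, and whether these shares differ was not tested.

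Shares of reads were compared library by library. Transcripts of 2000 to under 4000 bases held 28.8%, 28.8% and 29.3% of reads in WT and 30%, 29.8% and 29.7% in TA7, and the groups did not overlap. The means were 29% ± 0.322 and 29.8% ± 0.16 (SD, n = 3), a difference of 0.874 percentage points with exact two-sided permutation p = 0.1, the smallest that 3 against 3 libraries allow. Transcripts of 4000 bases or more held 22.8% of reads in WT and 23.4% in TA7 on average, with exact permutation p = 0.8 (n = 3). The sign of that difference turned to -0.571 points without WT replicate 1. Under 500 bases the shares were 2.84% ± 0.197 in WT and 2.75% ± 0.0146 in TA7 (SD, n = 3), with exact permutation p = 0.4.

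**Figure D4:**
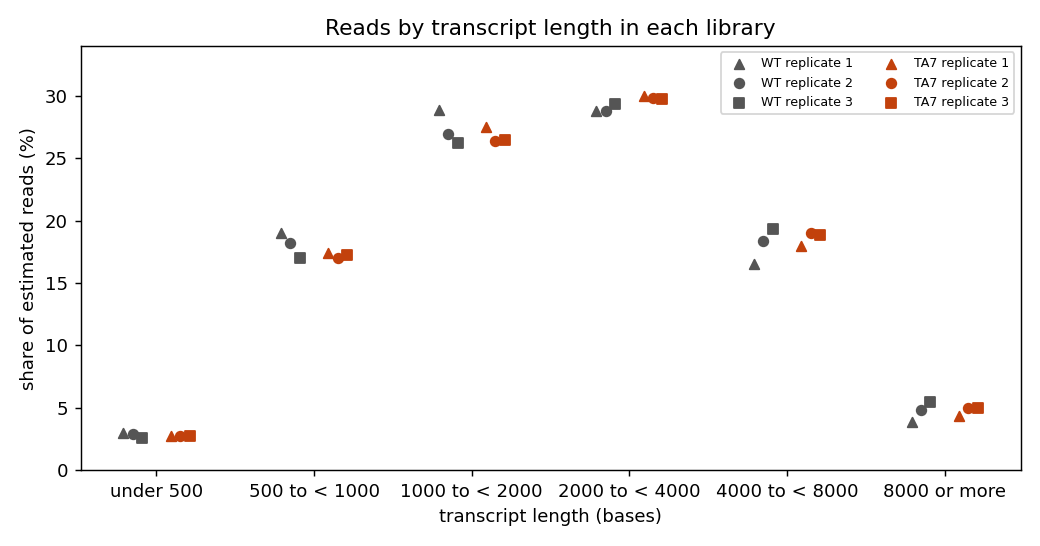
Share of estimated reads (vertical, %) by transcript length class (horizontal), 1 point per library, with the marker giving the replicate. The TA7 libraries lie within the range of the WT libraries or close to it in most classes, and in the class of 2000 to under 4000 bases all 3 lie above all 3 WT libraries.

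The number of transcripts with reads did not overlap between the groups. The WT libraries had reads on 87229, 95401 and 97196 transcripts and the TA7 libraries on 99815, 99993 and 98794, each above every WT library. The means were 93275 ± 5313 and 99534 ± 647 (SD, n = 3), with exact permutation p = 0.1, again the smallest possible. Without WT replicate 1 the difference of 6259 became 3236. Depth was 64364751 to 67628672 reads in the WT libraries and 65723341, 90805283 and 67558420 in the TA7 libraries. The part of depth in this difference was not tested. The number at 1 TPM or more, a higher bar, overlapped between groups: 37130, 41436 and 42960 in WT and 40850, 41531 and 42177 in TA7, with exact permutation p = 0.8 (n = 3). The 100 most abundant transcripts held 25.4%, 24.1% and 22.4% of reads in WT and 22.6%, 21.9% and 22.1% in TA7, with exact permutation p = 0.2 (n = 3) and overlap through WT replicate 3. In the family of 11 such measures the smallest Benjamini-Hochberg adjusted p of these exact tests was 0.55.

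Effective length, the number of positions of a transcript that could give a read, entered only as a check. The fragment length it implies was 159, 156 and 165 bases in WT and 165, 149 and 158 in TA7, with exact permutation p = 0.7 (n = 3). For transcripts of at least 5 CPM the TA7 to WT log2 ratio of effective length had a median of 0.00 and its 5% and 95% quantiles were -0.03 and 0.09, and over the 48 called transcripts it lay between -0.09 and 0.24. With effective length as an offset 55 transcripts were called, 47 of them among the 48.

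Which transcripts were called depended on single libraries, the TE7 libraries included. Of the 48, 5 were called in all 9 edgeR fits that left out 1 library, and 3 were called in none of them. All 5 were transcripts with reads in both groups. Without 1 TE7 library the count of calls was 5, 7 or 6, of which 5, 6 and 5 were among the 48. Without WT replicate 1, 2 or 3 it was 159, 76 or 65, and without TA7 replicate 1, 2 or 3 it was 34, 25 or 37. In the fit without TA7 replicate 1 more were lower (20) than higher (14). Replicate spread at 5 CPM or more, as the median SD of log2 CPM, was 0.12 in TE7 and 0.18 for WT and TA7 together. It was 0.14 within TA7 alone, close to TE7, and 0.19 within WT alone.

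**Figure D5:**
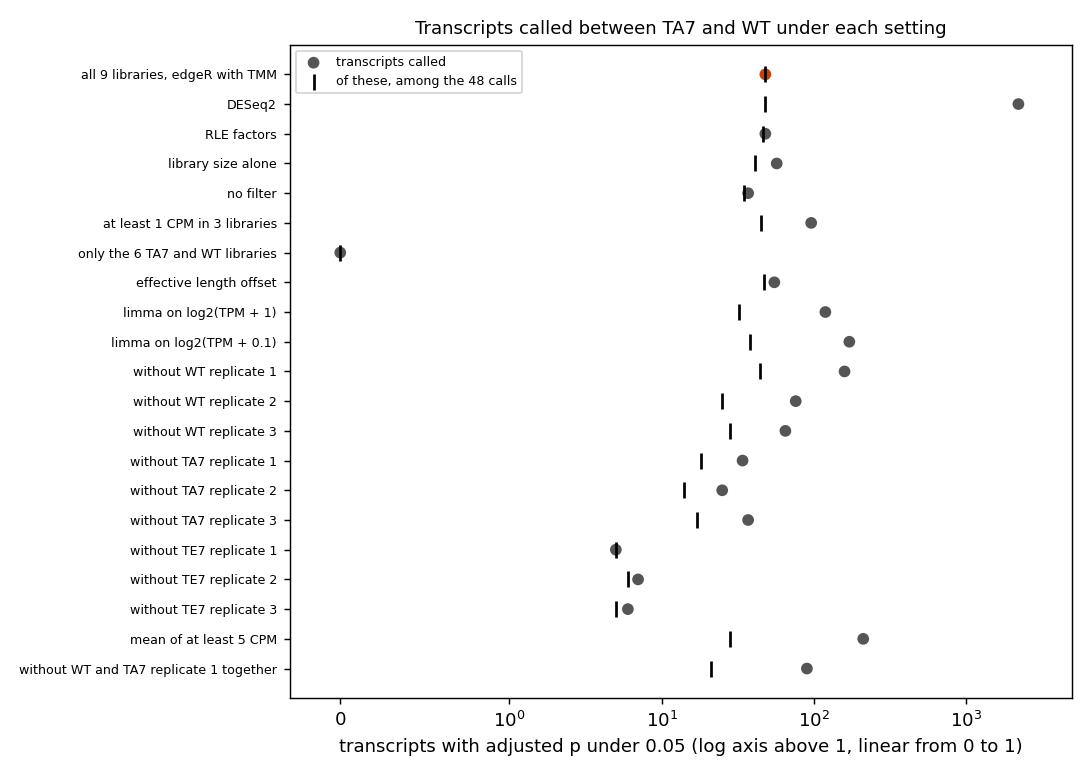
Number of transcripts called between TA7 and WT (horizontal, log axis above 1) by processing setting (vertical), with a tick for how many of the 48 were called there too. Fits with a replicate block, and fits of the 6 libraries alone with 1 left out, called 0 each and are not drawn. The count runs from 0 in the fit of only the 6 libraries to 2206 in DESeq2.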

How the data were processed

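Oligo-dT-selected RNA from 3 WT and 3 TA7 libraries was used, with 3 TE7 libraries in the same fit, and the 48 samples with other measurements were not analysed here. Per the submitters' processing notes, the tools were cutadapt 2.3 and Salmon 1.3.0 and the build was hg19. The transcript set and Salmon's options: not given in the sources used here. The authors' tables hold expected counts of reads, as Salmon estimates them without normalization. They also hold the authors' deposited TPM, which relates those counts to effective length and to the library's sum. Length and effective length are per the file headers.

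Counts were rounded. Low counts were removed with edgeR 4.0.16's default filter, which kept 99.67% to 99.79% of reads in the 6 libraries, and edgeR's quasi-likelihood model with group as the only term was fitted to 9 libraries with TMM factors. SE is the log2 change over the root of the F statistic. Log2 CPM for distances and spread had 0.5 added. Alternatives used DESeq2 1.42.0 and limma 3.58.1 on log2(TPM + 1) and log2(TPM + 0.1). The test was tried on simulated data, with 2 false calls. Those libraries were drawn independently around a shared mean per transcript, apart from the changes placed in TA7. No whole library was shifted as WT replicate 1 was, so the 2 false calls do not bear on such a shift. Intervals and floors cover counting error only. The planned test per gene was not run, as 0 identifiers matched a gene. The comparison, the naming rule and the length classes were chosen with earlier results of these data known.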

Additional observations from a re-analysis of the deposited data

How the results depend on the processing

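The fits on transcripts of at least 5 CPM, without WT and TA7 replicate 1 together, and of TA7 and WT libraries with 1 left out, and the library measures with 1 library left out, were chosen after seeing the data. Against 48 calls, DESeq2 gave 2206, the filter of 1 CPM in 3 libraries 96, limma on log2(TPM + 1) 119 and on log2(TPM + 0.1) 171, transcripts of at least 5 CPM 211, the fit without WT and TA7 replicate 1 together 90, and the fit of only 6 libraries 0. RLE factors gave 48, library size alone 57, an effective length offset 55 and no filter 37. Leaving out 1 of 9 libraries gave 5 to 159 calls, and leaving out 1 of the 6 libraries fitted alone gave 0 each time, with 3284 to 6700 at an unadjusted edgeR p under 0.05. With a replicate block the count was 0 in the fit of 9 libraries, with 5556 at an unadjusted p under 0.05 and a smallest adjusted p of 0.056, and 0 in the fit of 6, with 4116. The replicate numbers were not taken as pairs in the main fit. Deviations from the group means of same-numbered TA7 and WT libraries correlated at 0.309, -0.0146 and 0.241. Between libraries of other numbers the correlations were -0.321 to 0.141, the last for WT replicate 2 with TA7 replicate 3. Whether a replicate number marks a shared effect was not tested. Of the 27 or 28 alternatives in which each named transcript was tested, edgeR, DESeq2 or limma called ENST00000368149.3_3 in 19, ENST00000327741.9_3 in 18, ENST00000636569.1_2 in 15 and ENST00000395309.7_1 in 8, and none turned in direction. For long transcripts (4000 bases or more), the TA7 minus WT difference in their share of reads, 0.617 points, was -0.571 without WT replicate 1 and up to 1.62 with 1 library left out. It was 1.01 at a limit of 3000 bases, 0.0723 at 8000, 0.215 as a share of TPM and 0.144 without the 100 most abundant transcripts. With 1 library left out, the difference in transcripts with reads was 3236 to 8219, that in reads at 2000 to under 4000 bases 0.776 to 1.06 points, and that in the 100 most abundant -2.57 to -1.09 points. Some settings test fewer transcripts or fewer samples, and the cause of a moved result was not tested for any setting. For calls of single transcripts, the SE rises as the level falls.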

Other observations

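Abundant transcripts with large differences were set beside all transcripts at their level. Of the 8536 tested transcripts at 20 CPM or more, 31 had a fitted change of 2-fold or more between TA7 and WT, 18 higher and 13 lower. The TA7 and WT libraries did not overlap in 20 of the 31 (64.5%), against 22.8% of all at that level. The size of the change had chosen these 31, so nothing is read from that share. The edgeR test called 5 of them and DESeq2 10, against 19 and 683 of the 8536 transcripts at that level. The choice by size of change bears on these counts too. The median SD of log2 CPM within WT and TA7 was 0.92 for the 31 transcripts, against 0.14 for all at that level. A wide spread makes a large fitted change more likely, so nothing is read from that contrast either. Among the 26 that edgeR did not call, this SD ran from 0.18 to 4.37, and in 15 the groups did not overlap. These transcripts were counted after their values were seen.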
